A study of Mus musculus with 49 samples.

Results

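The 9 genes described here, Cd79a, Cd79b, Ms4a1, Blnk, Pax5, Cd74, H2-Aa, H2-Ab1 and H2-Eb1, are genes of the B cell lineage and of class II antigen presentation, and their RNA was followed in purified splenic CD8+ T cells over culture with IL-2. They were taken by symbol, with the longest transcript for each symbol, and are 9 of the 23992 gene symbols in the data. All 9 passed the filter on low counts and are among the 15562 genes tested. Cd79a and Cd79b encode the signalling chains of the B cell receptor, Ms4a1 encodes the surface protein CD20, Blnk encodes the adaptor that couples the receptor to downstream enzymes, and Pax5 encodes the transcription factor that maintains B cell identity. H2-Aa, H2-Ab1 and H2-Eb1 encode chains of the class II molecules I-A and I-E, and Cd74 encodes the invariant chain that guides class II molecules through the cell. B cells, macrophages and dendritic cells present antigen on class II molecules, and the spleen is rich in all of them.

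The cells came from mice of 2 lines on the C57BL/6J strain. In the Stat5a line a tyrosine of STAT5A was replaced with phenylalanine by CRISPR/Cas9 (Stat5a KI), and in the Stat5b line the matching tyrosine of STAT5B was replaced (Stat5b KI), in every cell of the animal and not in T cells only. Littermates gave the WT cells of each line, called Stat5a WT and Stat5b WT here, and adult female and male mice were used. CD8+ T cells were purified from spleen with a negative selection kit, taken directly (0 hr) or after 4, 24 and 48 hr in human IL-2 at 500 IU/ml, a cytokine that drives CD8+ T cells to divide. STAT5 proteins transmit the IL-2 signal after the tyrosine is phosphorylated, and the comparisons ask how the RNA of the 9 genes moved over the culture and how it differed between KI and WT cells. Each of the 16 groups of line, genotype and time has 3 libraries, apart from Stat5a KI at 4 hr, where replicate 3 was left out and 2 libraries were used. Reads on the longest transcripts numbered 17369537 to 60202776 in the 47 libraries used (median 41412147), whereas the library left out holds 1028503. The labels do not say that libraries of a group came from separate mice, so that p-values measure the spread between libraries, which may be technical.

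The labelled cell type was checked first. Cd8a and Cd8b1, the chains of the CD8 co-receptor, were abundant in all 47 libraries, with 81 to 342.5 RPKM for Cd8a (RPKM is reads scaled to the length of the transcript and the mapped reads of the library). The lowest Cd8a value, 81, belonged to replicate 2 of Stat5a WT cells at 4 hr, which also had the fewest reads of the 47 libraries. Only 44.86% of its mapped reads were counted on the longest transcripts, against 68.73% to 84.44% in the other libraries used. RPKM is scaled to mapped reads, whereas the tests use the counts on the longest transcripts. At 0 hr every KI library lay below every WT library of its line for both Cd8a and Cd8b1. For Cd8a the KI libraries reached 135.1 RPKM in the Stat5a line and 175.5 RPKM in the Stat5b line. For Cd8b1 they reached 212.8 and 252.5 RPKM, against lowest WT values of 237.9 and 315.8 RPKM. The part of this difference in the results was not tested. Stat5a RNA averaged 16.64 to 28.31 RPKM and Stat5b RNA 21.28 to 50.96 RPKM over the groups, and since reads were counted by gene and not by allele, these levels do not check the genotype labels. A second library group stood apart for the genes described here. Replicate 3 of Stat5a WT cells was the lowest of its group in 32 of 36 pairs of gene and time. It held 0.224 to 0.575 times the mean of replicates 1 and 2 for Cd79a, Cd79b, Ms4a1, Blnk and Pax5, and 0.43 to 1.12 times for the class II genes, and the counts of the 9 genes called in comparisons with Stat5a WT cells are given with and without it, while other values include it unless stated. Replicate 1 of Stat5a KI cells stood apart for markers of plasma cells and macrophages, with values given beside those lists. The 4 exceptions among the 36 pairs were Cd74 and the H2 genes at 4 hr, where the lowest library was the one with few counted reads.

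Promoter sequence was read for the 5 of the 9 genes that matched the RefSeq promoter table (Cd79a, Blnk, Pax5, H2-Aa and H2-Eb1), on build GRCm38. The next stretches are shown because H2-Aa and H2-Eb1, both of which fell by 48 hr in all 4 series of line and genotype, share an arrangement of letters upstream of the transcript start. Capitals mark CTGATTGG (the Y box of class II promoters) and the letters GCAAC, which stand 30 bases before it in H2-Aa (chr17:34287824-34287919, minus strand) and 29 bases before it in H2-Eb1 (chr17:34305760-34305857, plus strand), and the H2-Aa stretch ends at the base before the start.

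H2-Aa: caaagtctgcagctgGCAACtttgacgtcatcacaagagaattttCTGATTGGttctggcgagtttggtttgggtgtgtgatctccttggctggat

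H2-Eb1: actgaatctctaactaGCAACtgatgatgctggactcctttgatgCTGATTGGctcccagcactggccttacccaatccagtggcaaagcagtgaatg

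Of 32851 promoters in the table, 1258 (3.83%) held CTGATTGG on either strand in the 250 bases before the start, and 5 (0.0152%) held it with GCAAC at a spacing of 29 or 30 bases. These were Stard7, H2-Oa, H2-Aa, H2-Eb1 and H2-Eb2. Blnk held the octamer ATGCAAAT, a motif bound by Oct factors in B cell promoters, in reverse complement (capitals) and 130 bases before its start (chr19:40994299-40994396, minus strand), and 526 promoters (1.6%) held the octamer on either strand.

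Blnk: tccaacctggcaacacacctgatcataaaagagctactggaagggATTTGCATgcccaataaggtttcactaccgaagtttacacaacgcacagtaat

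The windows of Cd79a and Pax5 held 0 matches of the Y box and 0 of the octamer. The motifs were chosen after the windows had been read, the motifs do not overlap in these stretches, and a match is a description of the letters and not of binding.

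The class II genes were the most abundant of the 9 in freshly isolated cells. Cd74 stood at 751.9, 978.6 and 581 RPKM in Stat5a WT cells at 0 hr and at 602, 661.4 and 857.4 in Stat5b WT cells. It stood at 1922, 1414 and 1600 RPKM in Stat5a KI cells, and at 1878, 1987 and 1556 in KI cells of the Stat5b line. All KI values lay above all WT values of the same line. H2-Aa, H2-Ab1 and H2-Eb1 ranged from 174.7 to 546.1 RPKM in WT cells and from 418.1 to 1058 RPKM in KI cells at 0 hr over both lines. The B cell genes were lower, with Cd79a at 18.44 to 64.96 RPKM in WT cells and 80.87 to 119.9 RPKM in KI cells, and Pax5 at 2.392 to 8.652 RPKM in WT cells and 11.02 to 16.53 RPKM in KI cells. Over all 47 libraries the highest and lowest RPKM of a gene differed by 19.8-fold for Cd79b, 42.4-fold for Ms4a1, 47.9-fold for Cd79a, 50.3-fold for Blnk, 60.7-fold for Cd74, 77.7-fold for Pax5, 77.8-fold for H2-Aa, 89.3-fold for H2-Eb1 and 105-fold for H2-Ab1. The lowest values rested on few reads for Pax5, which had 21, 15 and 36 reads in Stat5b WT cells at 48 hr, above the floor of 3 reads. Cd79a lies on chromosome 7 of GRCm38, Cd79b on 11, Pax5 on 4, Ms4a1 and Blnk on 19 and the H2 genes on 17. Ms4a1, Pax5 and Cd74 overlap other annotated genes (4930526L06Rik for Ms4a1, Mir5120 and 5730488B01Rik for Pax5 and Mir5107 for Cd74), and reads of overlapping genes cannot be told apart here because the use of strand in the counting is not stated.

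**Figure D1:**
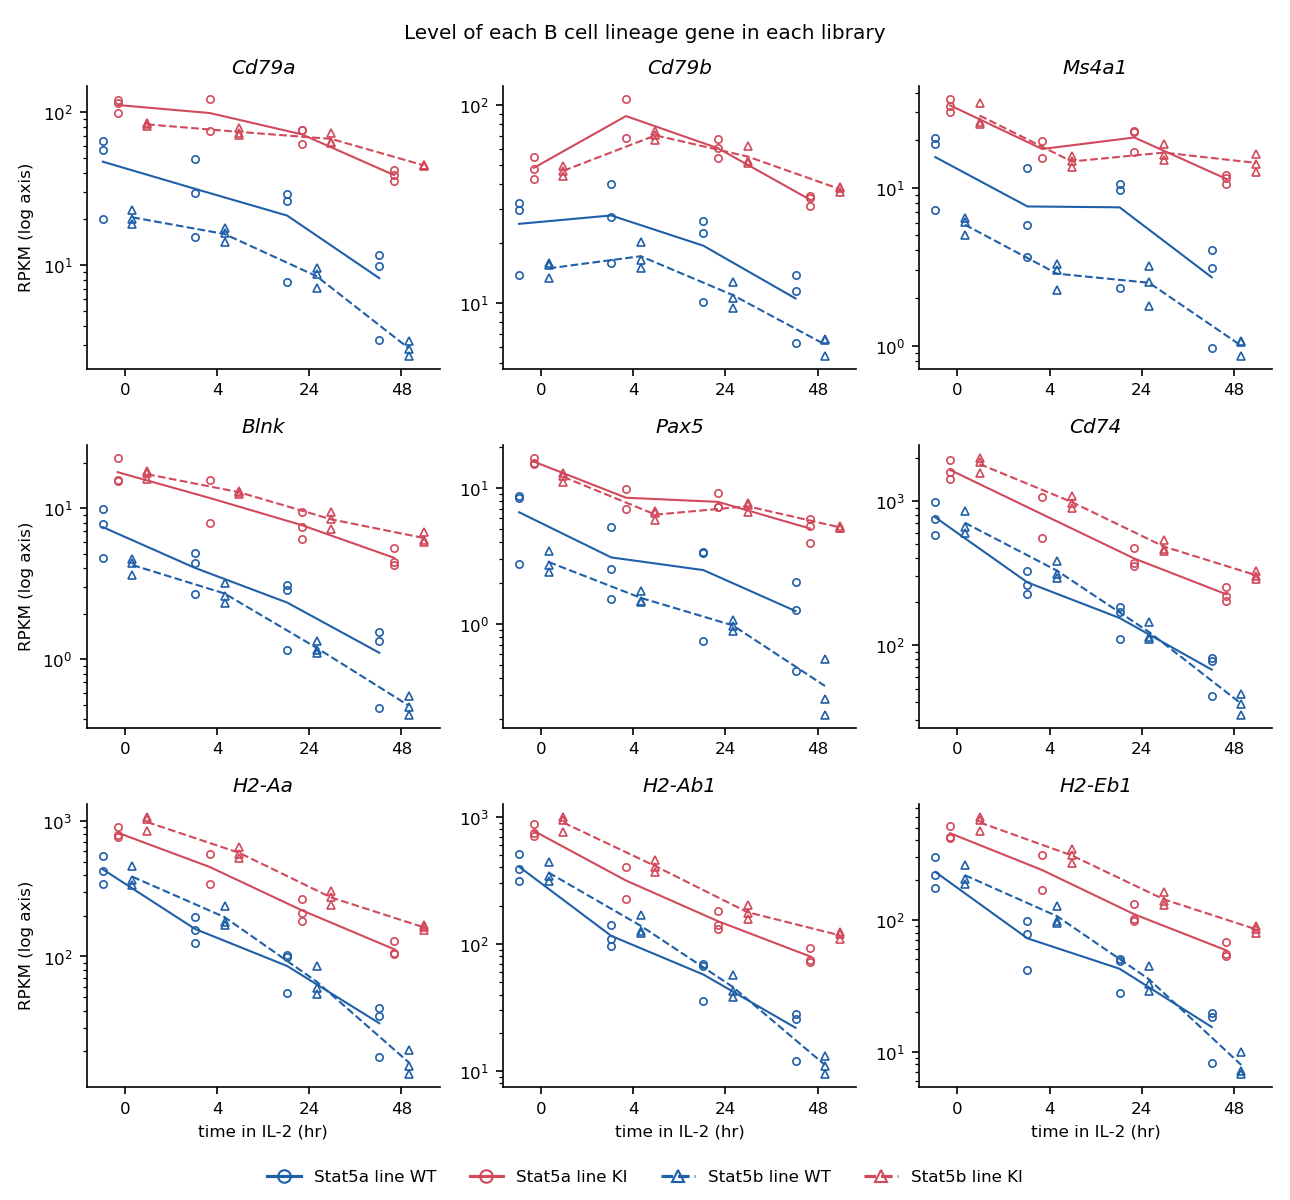
RPKM on a log axis against hours of culture with IL-2 for the 9 genes, with a point for each of the 47 libraries in WT and KI cells of both lines and lines through group means. Cd74 is lower at 48 hr than at 0 hr in all 4 series, from 1807 to 305.7 RPKM on average in Stat5b KI cells and from 707 to 39.24 in their WT cells, whereas Cd79b has its highest mean over the libraries used at 4 hr in all 4 series.

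Over culture with IL-2 the RNA of all 9 genes fell in WT cells of both lines by 48 hr, and the class II genes fell the furthest. Cd79a stood at 56.69, 64.96 and 20.04 RPKM at 0 hr in Stat5a WT cells and at 11.56, 9.763 and 3.221 RPKM at 48 hr. The 3 values at 48 hr lay below the 3 at 0 hr. The difference was -2.67 ± 0.387 on the log2 scale (SE, n = 3 libraries per group, edgeR adjusted p = 1.42e-07). In Stat5b WT cells Cd79a stood at 19.99, 18.44 and 22.89 RPKM at 0 hr and at 3.175, 2.543 and 2.825 RPKM at 48 hr, without overlap. The difference was -2.93 ± 0.414 (edgeR adjusted p = 8.21e-08), which is a 7.63-fold fall. Levels here are relative to the reads of a library and are not amounts per culture. In bulk samples such as these, fewer cells of a type, less RNA per cell and more RNA from other cells cannot be told apart.

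In Stat5a WT cells, 5 of the 9 genes fell by 4 hr, 8 by 24 hr and 9 by 48 hr, where 10.6%, 13.9% and 20.8% of all genes tested were called lower (adjusted p of at most 0.05 and fold change of at least 2). In Stat5b WT cells the counts were 6, 8 and 9 genes, beside 9.52%, 12.7% and 19.2% of all genes. The median log2 difference of the 9 genes at 48 hr was -2.91 in the Stat5a and -3.19 in the Stat5b line, beside -0.042 and -0.051 for all genes tested. Without replicate 3 the counts in Stat5a WT cells were also 5, 8 and 9, and the median at 48 hr was -2.87. The comparisons of a line and genotype share their libraries at 0 hr.

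The class II genes fell early and steadily. H2-Ab1 stood at 392.1, 510.3 and 313 RPKM at 0 hr in Stat5a WT cells, at 142.1, 95.91 and 109.1 RPKM at 4 hr and at 28.22, 25.48 and 11.98 RPKM at 48 hr. None of these 3 groups overlapped another. The log2 difference from 0 hr was -1.70 ± 0.238 at 4 hr (edgeR adjusted p = 1.48e-07), -2.97 ± 0.25 at 24 hr and -4.34 ± 0.267 at 48 hr (edgeR adjusted p = 6.13e-17), a 20.3-fold fall. In Stat5b WT cells H2-Ab1 stood at 310.8, 339.9 and 441.6 RPKM at 0 hr, at 121.2 to 168.5 RPKM at 4 hr and at 10.93, 9.434 and 13.1 RPKM at 48 hr, and the fall at 48 hr was 34.8-fold, the largest of the 9 genes in these WT cells. Cd74, H2-Aa and H2-Eb1 fell at 4, 24 and 48 hr in WT cells of both lines, with log2 differences of -1.36 to -1.64 at 4 hr and -3.64 to -4.04 at 48 hr in the Stat5a line.

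Blnk and Pax5 fell in WT cells of both lines by 24 hr, and Pax5 by 4 hr. Blnk, the adaptor, stood at 4.635, 3.6 and 4.356 RPKM at 0 hr in Stat5b WT cells, at 2.602, 2.361 and 3.194 at 4 hr, at 1.1, 1.147 and 1.313 at 24 hr and at 0.4262, 0.5718 and 0.478 at 48 hr. Each later group lay below the earlier one. In Stat5a WT cells the values at 4 hr, 2.691 to 5.007 RPKM, overlapped those at 0 hr, 4.688 to 9.88 RPKM. The log2 difference in Stat5b WT cells was -0.78 at 4 hr, under the fold threshold, -1.96 at 24 hr and -3.19 at 48 hr. Pax5 fell already at 4 hr in all 4 series of line and genotype, with log2 differences of -1.01 to -1.09. Ms4a1 fell at 4 hr in 3 of the 4 series and had a log2 difference of -0.95 (edgeR adjusted p = 0.0343) in Stat5a WT cells, under the fold threshold.

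Cd79b, the second signalling chain of the B cell receptor, had its highest group mean at 4 hr in all 4 series of line and genotype, although no difference from 0 hr passed the test there. It stood at 13.44, 15.59 and 15.87 RPKM at 0 hr in Stat5b WT cells, at 16.41, 14.97 and 20.33 at 4 hr, at 9.497, 10.61 and 12.8 at 24 hr and at 6.501, 5.419 and 6.615 at 48 hr. In these WT cells the groups at 0 and 4 hr overlapped, and those at 24 and 48 hr lay below 0 hr. In KI cells of both lines every value at 4 hr lay above every value at 0 hr, with 107.3 and 68.4 against 42.11 to 54.57 RPKM in the Stat5a line and 66.89 to 73.49 against 43.59 to 49.39 RPKM in the Stat5b line, and the values of 50.87 to 61.9 RPKM at 24 hr in the Stat5b line also lay above 0 hr. None of these 3 differences passed the test (log2 differences of 0.67, 0.45 and 0.16, edgeR adjusted p = 0.0633, 0.182 and 0.656). All groups share an estimate of the spread, which includes replicate 3 of Stat5a WT cells. Without that replicate at all 4 times, the first of these differences was 0.635 ± 0.133 (edgeR adjusted p = 0.00015), under the fold threshold. Cd79b was not called at 4 or 24 hr in any of the 4 series, and it fell by 48 hr in WT cells only as far as 2.61-fold in the Stat5a line and 2.58-fold in the Stat5b line. In KI cells at 48 hr it was not called, with log2 differences of -0.73 ± 0.276 (edgeR adjusted p = 0.0215) in the Stat5a line and -0.44 ± 0.275 (edgeR adjusted p = 0.186) in the Stat5b line.

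**Figure D2:**
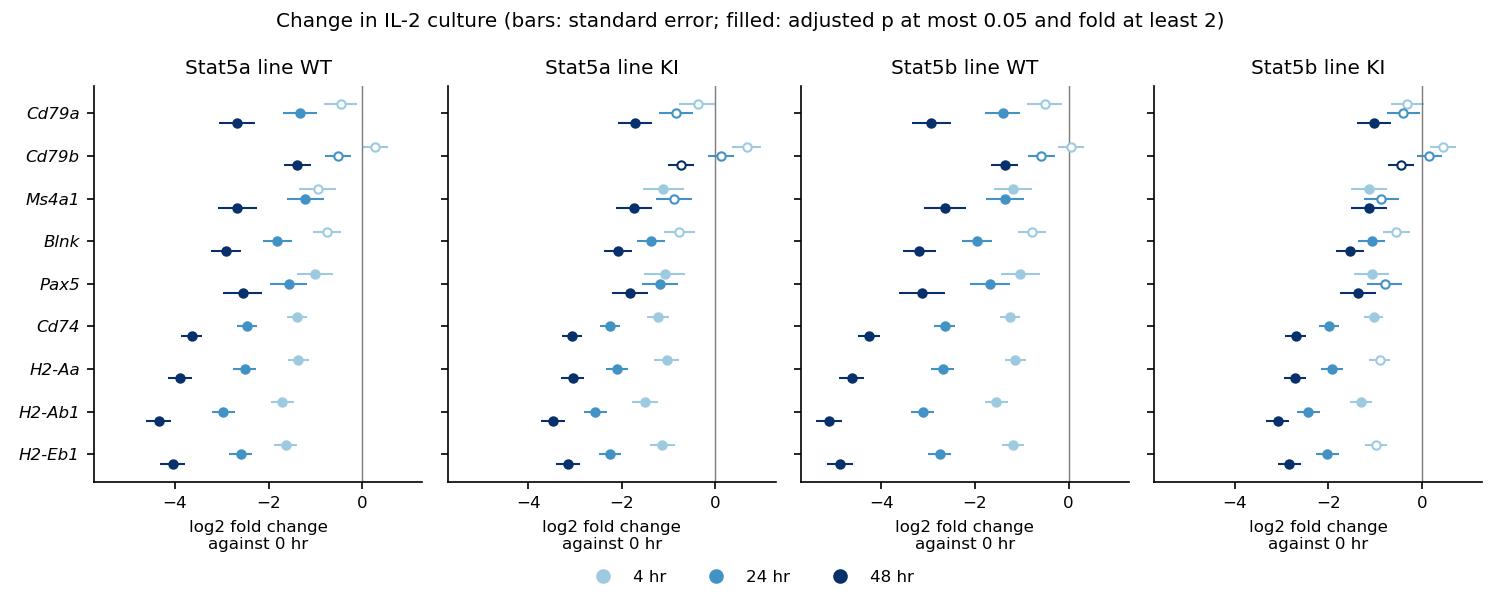
Log2 difference from 0 hr, with its standard error, for each of the 9 genes at 4, 24 and 48 hr of IL-2. WT and KI cells of both lines are shown. Filled points mark an adjusted p of at most 0.05 with a fold change of at least 2. H2-Ab1 in the Stat5b line reaches -5.12 in WT cells and -3.08 in KI cells at 48 hr, and Cd79b lies nearest to 0 at 48 hr in all 4 series.

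In KI cells 8 of the 9 genes, all but Cd79b, fell by 48 hr. Cd79a stood at 84.85, 82.96 and 80.87 RPKM at 0 hr in Stat5b KI cells and still at 45.11, 44.14 and 45.04 RPKM at 48 hr. The groups did not overlap, and the 48 hr values of the KI cells lay above the 0 hr values of the WT cells. The difference was -1.02 ± 0.359 on the log2 scale (edgeR adjusted p = 0.0164), a 2.03-fold fall, which is close to the threshold of 2. In Stat5a KI cells Cd79a fell 3.28-fold, from 98.86 to 119.9 RPKM at 0 hr to 38.65, 35.32 and 41.95 RPKM at 48 hr. Cd74 fell 8.36-fold in Stat5a KI cells (log2 difference of -3.06 ± 0.221) and 6.48-fold in Stat5b KI cells (-2.70 ± 0.217), beside 12.5-fold and 19.2-fold falls in the WT cells.

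In Stat5a KI cells 6 of the 9 genes fell at 4 hr, 6 at 24 hr and 8 at 48 hr, beside 10.8%, 13.5% and 16% of all genes tested. In Stat5b KI cells 4, 5 and 8 genes fell, beside 7.88%, 10.3% and 12.5% of all genes. The 4 genes of Stat5b KI cells at 4 hr were Ms4a1, Pax5, Cd74 and H2-Ab1, while H2-Aa and H2-Eb1 had log2 differences of -0.90 and -0.98 (edgeR adjusted p = 0.00109 and 0.000614), under the fold threshold. Blnk and the 4 class II genes were called in Stat5b KI cells at 24 hr. The counts at 4 hr moved when 1 library was left out: the count in Stat5a KI cells was 1 without Stat5a KI replicate 2 of that time, a fit with a single KI library at 4 hr that is assumed to vary like the other groups, and that in Stat5b KI cells was 2 without Stat5b KI replicate 1 of that time. The median log2 difference at 48 hr was -2.08 in Stat5a KI cells, and -1.54 in KI cells of the Stat5b line, beside 0.001 and 0.032 for all genes.

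Relative to the reads of a library, RNA of the B cell genes was higher in KI than in WT cells, and in the Stat5b line at every time. At 0 hr Ms4a1 stood at 25.48, 26.06 and 34.43 RPKM in Stat5b KI cells against 6.403, 5.04 and 6.044 RPKM in their WT cells, with no overlap. The difference was 2.22 on the log2 scale (4.65-fold). Cd79a was 3.83-fold higher at 0 hr (log2 difference of 1.94 ± 0.371, edgeR adjusted p = 0.000204) and Cd74 2.42-fold higher (1.27, edgeR adjusted p = 2.97e-05).

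At 48 hr the fold differences in the Stat5b line were larger in size. Cd79a stood at 45.11, 44.14 and 45.04 RPKM in KI cells against 3.175, 2.543 and 2.825 RPKM in WT cells, a 14.4-fold difference (3.85 ± 0.422 on the log2 scale, edgeR adjusted p = 5.54e-10). Pax5 stood at 5.249, 5.017 and 5.083 RPKM against 0.2774, 0.2127 and 0.5531 RPKM, a 13.6-fold difference (3.77 ± 0.482, edgeR adjusted p = 1.69e-08). Ms4a1 was 13.3-fold, Blnk 11.8-fold, H2-Eb1 9.87-fold, Cd74 7.16-fold and Cd79b 5.59-fold higher, and the KI and WT values of these genes did not overlap. All 9 genes were called higher in Stat5b KI cells at 0, 4, 24 and 48 hr, beside 7.13%, 9.56%, 10.9% and 15.7% of all genes tested. The median log2 difference of the 9 genes was 1.55 at 0 hr, 1.95 at 4 hr, 2.30 at 24 hr and 3.30 at 48 hr.

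**Figure D3:**
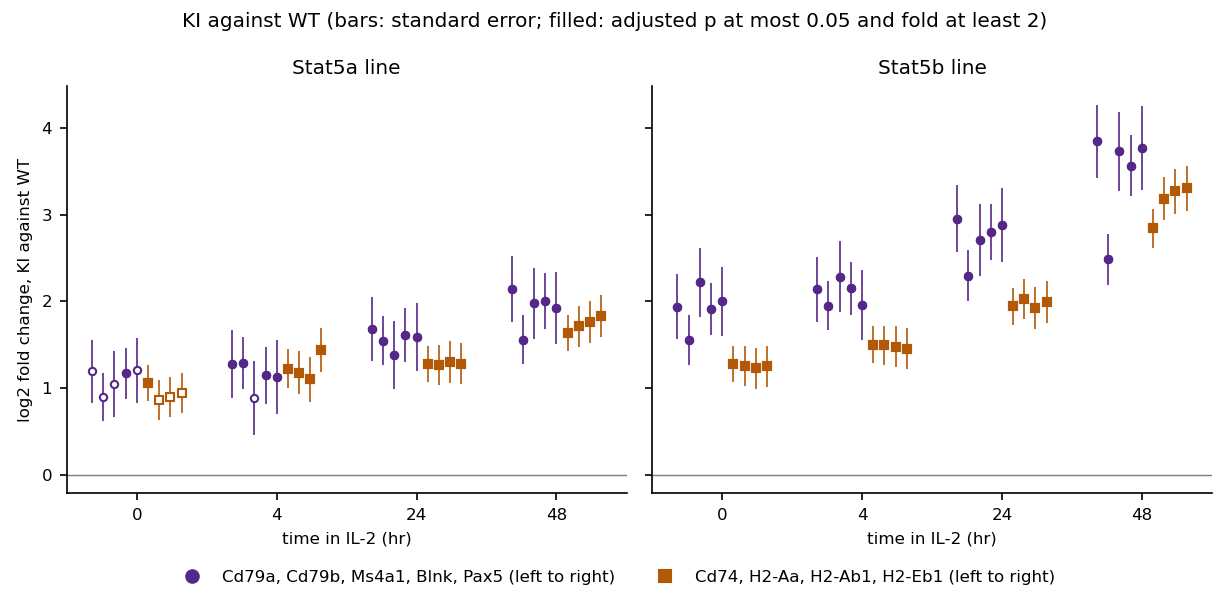
Log2 difference between KI and WT cells, with its standard error, at 0, 4, 24 and 48 hr for each of the 9 genes in the Stat5a line and the Stat5b line, with the fold threshold of 2 marked. Cd79a stands at 1.94 at 0 hr and 3.85 at 48 hr in the Stat5b line and at 1.19 and 2.15 in the Stat5a line.

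In the Stat5a line fewer of the genes passed the test at 0 and 4 hr. At 0 hr Blnk (1.17 ± 0.293 on the log2 scale, 2.25-fold, edgeR adjusted p = 0.0197) and Cd74 (1.06 ± 0.206, 2.08-fold, edgeR adjusted p = 0.00335) passed the test, 2 of the 9 genes beside 0.778% of all genes tested. Cd79a had a log2 difference of 1.19 (edgeR adjusted p = 0.0567), although its KI values of 98.86 to 119.9 RPKM lay above its WT values of 20.04 to 64.96 RPKM. At 4 hr 8 genes were called (all but Ms4a1, at 0.89 with an edgeR adjusted p of 0.119), beside 2.2% of all genes, and at 24 and 48 hr all 9 were called, beside 3.1% and 5.85%. At 48 hr Cd79a stood at 38.65, 35.32 and 41.95 RPKM in KI cells against 11.56, 9.763 and 3.221 RPKM in WT cells, a 4.43-fold difference (2.15 ± 0.381, edgeR adjusted p = 1.67e-05), or 1.81 on the log2 scale without replicate 3 of the WT cells. Cd79b was 2.94-fold and Cd74 3.11-fold higher at 48 hr.

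The counts at 0 and 4 hr of the Stat5a line moved when libraries were left out. Without replicate 3 of the WT cells at all 4 times, 0 genes were called at 0 hr, with log2 differences of 0.617 to 0.93 that all had an edgeR adjusted p of at most 0.05, and 4 at 4 hr (the class II genes), 8 at 24 hr and 9 at 48 hr. Leaving out 1 library at a time, the count at 0 hr was 0 without WT replicate 3 or KI replicate 1, 1 without WT replicate 1 and 8 without WT replicate 2. The count at 4 hr was 3 without WT replicate 3 of that time, and 0 without KI replicate 1, where the single KI library left is assumed to vary like the other groups.

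The difference between the IL-2 responses of KI and WT cells was tested directly as an interaction. In the Stat5b line the log2 change from 0 to 48 hr was higher in KI than in WT cells for 8 of the 9 genes, beside 9.8% of all genes tested. The difference was 1.91 for Cd79a (edgeR adjusted p = 0.00321), 1.57 for Cd74 (edgeR adjusted p = 2.41e-05) and 2.05 for H2-Eb1 (edgeR adjusted p = 3.35e-06). Cd79b, at 0.93 ± 0.401, did not pass (edgeR adjusted p = 0.0529). In the Stat5a line 0 genes were called, beside 2.85% of all genes, both by edgeR and by DESeq2. The differences there were 0.581 to 0.956, all in the same direction, and 3 genes had an unadjusted p under 0.05, namely H2-Aa at 0.85, H2-Ab1 at 0.87 and H2-Eb1 at 0.89 (edgeR adjusted p = 0.0423, 0.0459 and 0.0394). The count in the Stat5a line was 4 without WT replicate 3 at 0 hr, 3 without WT replicate 1 at 48 hr and 1 without KI replicate 1 at 0 hr or WT replicate 2 at 48 hr, and it was 1 with the replicate number as a block and 0 without WT replicate 3 at all 4 times. In that last fit the differences were 0.565 to 0.973, under the fold threshold, and 7 of the 9 genes had an edgeR adjusted p of at most 0.05.

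The difference between KI and WT cells was also compared between the lines. At 0 hr 0 of the 9 genes differed between the lines by edgeR and by DESeq2, with 0.0514% of all genes called higher in the Stat5b line. The differences at 0 hr were 0.218 to 1.17 on the log2 scale and 1 gene had an unadjusted p under 0.05. Without replicate 3 of Stat5a WT cells 4 genes passed at 0 hr, Cd79a at 1.12, Ms4a1 at 1.52, Blnk at 1.00 and Pax5 at 1.18. At 48 hr 7 genes differed, beside 1.57% of all genes, with Cd79a at 1.70 (edgeR adjusted p = 0.0361), Ms4a1 at 1.75, Blnk at 1.57, Cd74 at 1.20 (edgeR adjusted p = 0.00542), H2-Aa at 1.47, H2-Ab1 at 1.51 and H2-Eb1 at 1.47. Pax5 at 1.85 (edgeR adjusted p = 0.0521) and Cd79b at 0.93 (edgeR adjusted p = 0.139) did not pass. The count at 48 hr was 4 without any 1 of 5 libraries (Stat5a line WT replicate 1, WT replicate 2 or KI replicate 2, Stat5b line WT replicate 1 or KI replicate 3), 9 without replicate 3 of Stat5a WT cells at all 4 times, and 1 with all 48 libraries.

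The share of counted reads that fell on the 9 genes gives the signal on one scale. It was 0.2773% to 0.3718% in Stat5b WT cells at 0 hr and 0.01156% to 0.01595% at 48 hr. In Stat5b KI cells it was 0.739% to 0.8807% at 0 hr and 0.1347% to 0.1391% at 48 hr. The share in the Stat5a line went from 0.2672% to 0.4698% at 0 hr to 0.0153% to 0.03368% at 48 hr in WT cells, and from 0.675% to 0.8554% to 0.08784% to 0.1058% in KI cells. The highest mean of Cd79a over the 16 groups was 110.9 RPKM in Stat5a KI cells at 0 hr and the lowest was 2.848 RPKM in Stat5b WT cells at 48 hr. Next to each other in that order, the Stat5a KI cells at 0 hr overlapped the Stat5a KI cells at 4 hr (98.31 RPKM), the latter overlapped the Stat5b KI cells at 0 hr (82.89 RPKM), and Stat5b WT cells at 48 hr lay apart from Stat5a WT cells at 48 hr (8.182 RPKM). For Cd79b the highest mean was that of Stat5a KI cells at 4 hr, 87.85 RPKM over 2 libraries at 107.3 and 68.4 RPKM, and for Cd74 that of Stat5b KI cells at 0 hr, 1807 RPKM.

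Ratios between the genes within a library do not depend on its depth, and they were not constant over the culture. The summed RPKM of the 4 class II genes was 30.38, 34.91 and 38.43 times that of the 5 B cell genes in Stat5b WT cells at 0 hr, 17.94, 19.38 and 19.89 times at 4 hr, 10.8, 10.74 and 11.94 times at 24 hr and 6.469, 6.373 and 7.756 times at 48 hr. Stat5b KI cells went from 23.97, 24.53 and 19.47 at 0 hr to 6.548, 6.362 and 5.73 at 48 hr. The KI values lay below the WT values at 0 hr and overlapped them at 48 hr. In the Stat5a line the ratio was 14.45, 17.46 and 29 in WT cells and 17.05, 16.37 and 15.69 in KI cells at 0 hr, where the groups overlapped, and 5.202 to 7.261 and 4.593 to 5.73 at 48 hr.

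The ratio of Cd79b to Cd79a, 2 chains that work as a pair in the receptor, moved the other way. It was 0.6723, 0.8453 and 0.6932 at 0 hr and 2.048, 2.131 and 2.341 at 48 hr in Stat5b WT cells, and 0.548, 0.5954 and 0.539 at 0 hr and 0.8501, 0.8201 and 0.8488 at 48 hr in Stat5b KI cells. In Stat5b WT cells it was 1.014 to 1.169 at 4 hr and 1.086 to 1.506 at 24 hr. In KI cells the ratio was highest at 4 hr, at 0.9328 to 0.9724 in the Stat5b line and 0.8815 to 0.9133 in the Stat5a line. At 48 hr all WT values lay above all KI values in both lines, with 1.2, 1.173 and 1.962 in Stat5a WT cells and 0.8747, 0.8773 and 0.8299 in Stat5a KI cells. The ratio of Cd79a to Cd8a was 0.01457, 0.01189 and 0.01183 in Stat5b WT cells and 0.1527, 0.1486 and 0.1632 in Stat5b KI cells at 48 hr. Differences between these ratios were not tested.

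**Figure D4:**
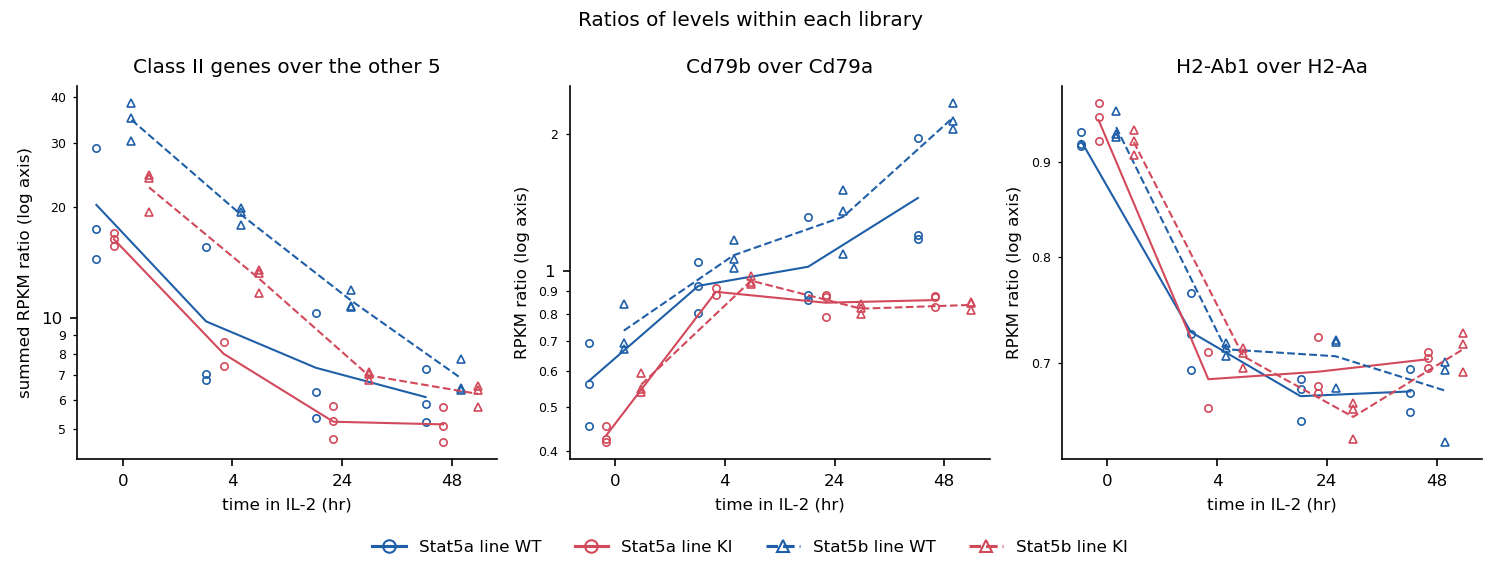
Ratios of RPKM within each of the 47 libraries against hours of culture with IL-2, with a point per library for WT and KI cells of both lines. The class II genes over the 5 B cell genes go from 30.38 to 38.43 at 0 hr down to 6.373 to 7.756 at 48 hr in Stat5b WT cells, and the ratio of Cd79b to Cd79a reaches 2.341 at 48 hr.

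Genes outside the 9 were ranked by how alike their group means were (Pearson correlation of mean log2 CPM over the 16 groups, which share line, genotype, time and library depth, given as a description among 15562 genes). The genes most alike to the mean of the 5 B cell genes included Fcrl5 at 0.995, Dok3 at 0.992, Lyl1 and Siglecg at 0.99, Fcer2a, Blk and 4930426D05Rik at 0.989, Vpreb3 at 0.988 and Klhl14 at 0.985. Those most alike to the mean of the class II genes were Themis2 at 0.993, Tbc1d9 and 4930506M07Rik at 0.992, Cd81 and Flt3 at 0.991, Smim5 at 0.99, Spi1, Tifa and Lrrk2 at 0.989 and Stom at 0.988. Among the 9, Cd79b was the least alike to the rest of its set (0.934), and the means of both sets correlated at 0.881.

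Other genes of the B cell and class II programmes were counted in lists. Of all genes tested, 20.8% fell by 48 hr in Stat5a WT cells and 19.2% in Stat5b WT cells, 5.85% and 15.7% were higher in KI than in WT cells at 48 hr and 2.85% and 10.7% were lower. Of the B cell receptor and coreceptor list (Cd22, Cd72, Cr2, Fcer2a and others beside 3 of the 9), 8 of 8 fell by 48 hr in WT cells of both lines, 5 of 5 outside the 9, and 7 of 8 were higher in KI cells of both lines at 48 hr (medians of 2.01 and 3.74, beside -0.004 and 0.06 for all genes). The exception was Cd72, at 0.47 in the Stat5a and 0.80 in the Stat5b line. The 5 listed genes outside the 9 summed to 14.16, 14.17 and 16.72 RPKM in Stat5b WT libraries and to 49.48, 47.21 and 50.14 RPKM in Stat5b KI libraries at 48 hr.

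Of the B cell transcription factors (Ebf1, Spib, Pou2af1 and Bcl11a beside Pax5), 5 of 5 fell by 48 hr in WT cells of both lines, and 4 of 5 in the Stat5a line and 5 of 5 in the Stat5b line were higher in KI cells at 48 hr (medians of 1.92 and 3.49). Ebf1, which acts with Pax5 early in the lineage, had the largest difference, 2.11 and 3.90 on the log2 scale, and Pou2af1 the smallest, 0.95 and 1.57. Of the B cell signalling genes (Btk, Blk, Syk, Lyn and others beside Blnk), 9 of 11 fell in Stat5a WT cells and 8 of 11 in Stat5b WT cells, and 7 and 9 of 11 were higher in KI cells at 48 hr, with medians of 1.47 and 2.69. Of the class II presentation list (H2-DMa, H2-DMb1, H2-DMb2, H2-Oa, H2-Ob and Ciita beside 4 of the 9), 9 of 10 fell in WT cells of both lines, and 8 and 9 of 10 were higher in KI cells at 48 hr (medians of 1.45 and 2.76). H2-DMa, a chain of the peptide exchange factor, was the exception in both lines in WT cells (-0.23 and -0.39) and was -0.17 and 0.21 between KI and WT cells. Of the plasma cell and activated B cell list, 3 of 7 in the Stat5a line and 4 of 7 in the Stat5b line were higher in KI cells at 48 hr, with Igj, the joining chain of antibodies, at 2.39 and 4.98, and 2 of 7 were lower in both lines, with Irf4, which activated T cells also use, at -1.46 and -1.54. In WT cells 4 of 7 fell in the Stat5a line and 3 of 7 in the Stat5b line by 48 hr. The list summed to 60.01, 78.77 and 69.28 RPKM in WT and 61.48, 38.59 and 40.02 RPKM in KI libraries of the Stat5a line at 48 hr, where the groups overlapped, and to 74.39 to 76.4 RPKM in WT and 77.27 to 90.52 RPKM in KI libraries of the Stat5b line. At 0 hr its sums were 105.4 to 113.4 RPKM in WT and 167.3 to 501.6 RPKM in KI libraries of the Stat5a line, and 81.28 to 93.78 RPKM in WT and 409.1 to 489.2 RPKM in KI libraries of the Stat5b line, and at 4 hr the latter were 79.76 to 92.89 and 375.1 to 420.2 RPKM, all without overlap. Replicate 1 of the Stat5a KI libraries stood apart, at 501.6 against 167.3 and 172.6 RPKM at 0 hr, 414.4 against 134.5 RPKM at 4 hr and 151.5 against 51.59 and 53.06 RPKM at 24 hr.

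Markers of other cell types moved with the 9 genes, and their part in the results was not tested. Of the macrophage and monocyte list, 10 of 10 were called lower by 48 hr in WT cells of both lines (for Fcgr1 in the Stat5b line the bound is a fall of at least 1.7-fold, under the threshold of 2), and 9 of 10 in the Stat5a line and 10 of 10 in the Stat5b line were higher in KI cells at 48 hr. Its median log2 difference was 3.15 in the Stat5a and 6.08 in the Stat5b line, or 5.61 with Fcgr1, which was listed at 0 in all 3 WT libraries at 48 hr, at the bound set by 3 reads per library, by which Fcgr1 was at least 6.6-fold higher. Over the 47 libraries Fcgr1 was listed at 0 in 9, Cd14 in 2 and Csf1r, C1qa and C1qb in 1 each. The most abundant gene was Lyz2, and the list summed to 3.282, 3.189 and 4.419 RPKM in Stat5b WT libraries and 97.03, 61.4 and 78.41 RPKM in the Stat5b KI libraries at 48 hr. In the Stat5a line the sums were 7.652, 6.045 and 3.067 RPKM in WT and 65.39, 23.49 and 23.2 RPKM in KI libraries, of which replicate 1 was the highest at all 4 times. At 0 hr 10 of 10 were already higher in Stat5b KI cells and 1 of 10 in Stat5a KI cells, beside 7.13% and 0.778% of all genes. The macrophage sums at 0 hr were 33.68 to 62.25 RPKM in WT and 84.49 to 148.3 RPKM in KI libraries of the Stat5a line. In the Stat5b line they were 33.43 to 41.32 and 126.6 to 185.6 RPKM, without overlap in either line.

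Of the dendritic cell list, whose most abundant gene was Siglech and in which Cd209a was listed at 0 in 2 libraries, 7 of 7 fell in WT cells of both lines by 48 hr, and 6 of 7 and 7 of 7 were higher in KI cells of the Stat5a and the Stat5b line at 48 hr (medians of 1.59 and 2.69). The sums at 48 hr were 4.068, 4.934 and 3.168 RPKM in WT and 15.51, 9.588 and 11.03 RPKM in KI libraries of the Stat5a line, and 2.685, 2.649 and 3.591 RPKM in WT and 20.84, 18.43 and 16.81 RPKM in KI libraries of the Stat5b line. Of the erythroid list, led by the haemoglobin gene Hbb-bs, 6 of 6 fell in WT cells of both lines, and 6 of 6 were higher in Stat5b KI cells at 48 hr against 0 of 6 in Stat5a KI cells, with sums of 4.713, 5.631 and 8.272 RPKM in WT and 206.1, 110.8 and 170 RPKM in KI libraries of the Stat5b line. Sums of the Stat5a line at 48 hr were 6.4 to 8.017 RPKM in WT and 17.93 to 22.48 RPKM in KI libraries, also without overlap. At 0 hr the erythroid sums were 37.9 to 116.9 RPKM in Stat5b WT and 390.7 to 969.4 RPKM in Stat5b KI libraries. Those of the Stat5a line overlapped, at 62.25 to 356.1 and 139.3 to 390 RPKM. The dendritic cell sums at 0 hr were 46.39 to 57.92 RPKM in Stat5b WT and 76.01 to 111.9 RPKM in Stat5b KI libraries. In the Stat5a line they were 40.53 to 65.47 and 65.9 to 91 RPKM. Hba-a1 and Hba-a2, like Hbb-bs and Hbb-bt, are near-identical copies whose reads may be split between them.

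**Figure D5:**
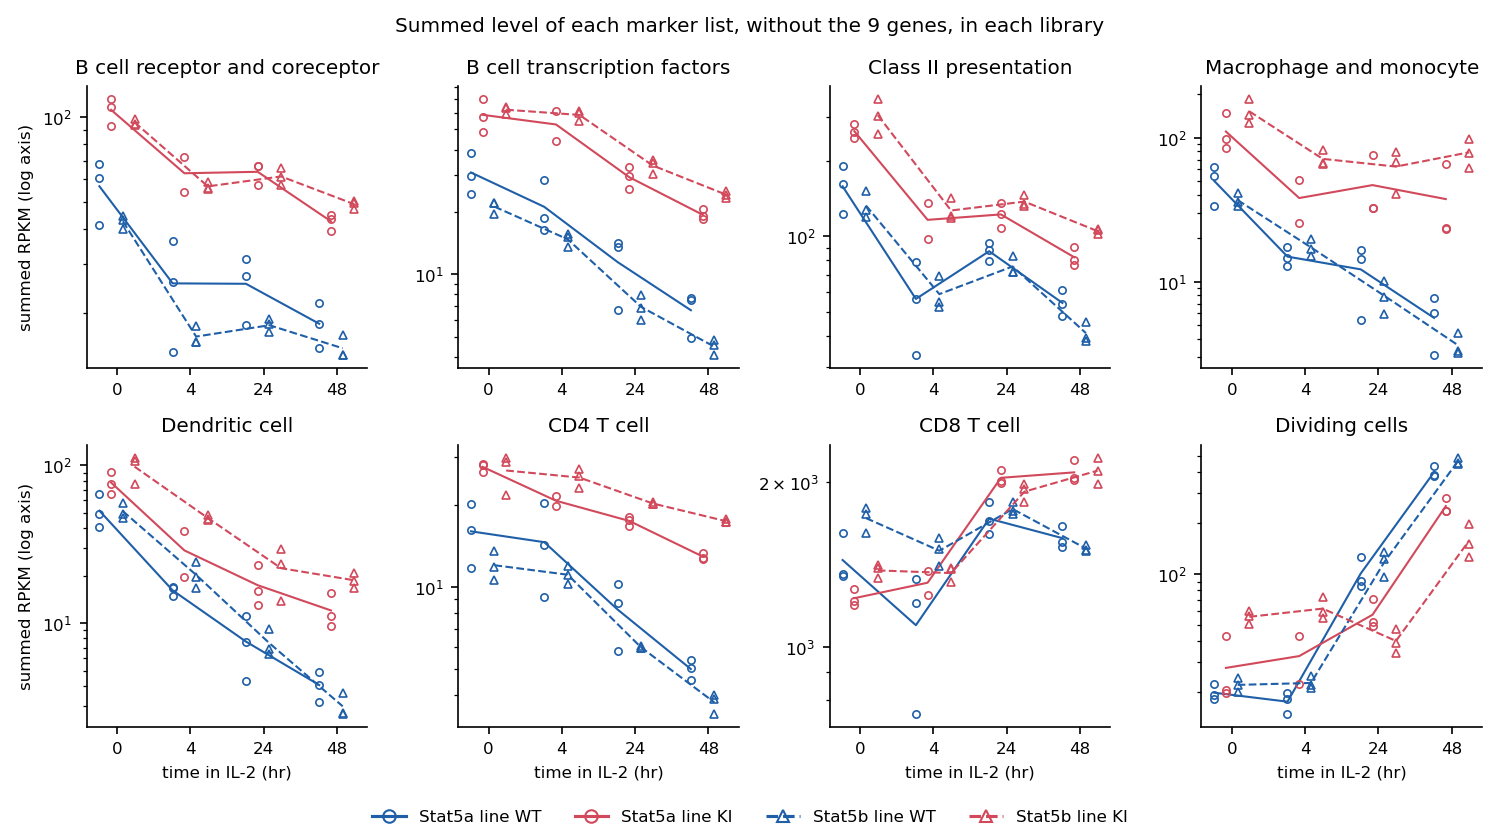
Summed RPKM of the marker lists in each of the 47 libraries, on a log axis, against hours of culture with IL-2, for WT and KI cells of both lines. The macrophage and monocyte list stands at 61.4 to 97.03 RPKM in Stat5b KI cells at 48 hr against 3.189 to 4.419 RPKM in their WT cells, and the CD8 T cell list at 1977 to 2212 against 1493 to 1536 RPKM.

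The T cell lists differed among themselves. Of the CD8 T cell list, led by Cd8b1, 0 of 8 were called between KI and WT cells at 48 hr in either line (medians of 0.26 and 0.31) and 0 of 8 between 48 and 0 hr in WT cells (-0.082 and -0.30), while its sum at 48 hr was 1493 to 1536 RPKM in Stat5b WT libraries and 1977 to 2212 RPKM in the Stat5b KI libraries. At 0 hr the order was the other way without overlap, with 1345 to 1615 RPKM in WT and 1190 to 1277 RPKM in KI libraries of the Stat5a line and 1610 to 1793 and 1335 to 1408 RPKM in the Stat5b line. Its part in the results was not tested. Of the CD4 T cell list, 2 of 4 in the Stat5a line and 3 of 4 in the Stat5b line were higher in KI cells at 48 hr, led by Cd4 at 2.26 and 3.45, and the sums were 3.879, 4.01 and 3.404 RPKM in WT and 17.2, 17.71 and 17.24 RPKM in KI libraries of the Stat5b line. In the Stat5a line the sums were 4.553 to 5.374 RPKM in WT and 12.63 to 13.32 RPKM in KI libraries, without overlap. At 0 hr the KI libraries summed to 26.39 to 28.08 RPKM in the Stat5a line and 21.69 to 29.72 RPKM in the Stat5b line. These lay above all WT libraries of their line at that time. By 48 hr 2 of 4 and 3 of 4 of these genes had fallen in WT cells, from sums of 11.67 to 20.1 RPKM in the Stat5a line and 10.6 to 13.55 RPKM in the Stat5b line at 0 hr, and the part of this list in the results was not tested. Of the NK cell list 2 of 5 rose and 1 of 5 fell by 48 hr in WT cells of both lines, and between KI and WT cells 0 of 5 were called in the Stat5a line, whereas 2 were higher and 1 lower in the Stat5b line, from Tyrobp at 2.03 to Klrb1c at -1.43. Beside these, 16% of all genes tested rose in Stat5a WT cells and 16.2% in Stat5b WT cells by 48 hr. The NK list summed to 45.11 to 77.09 RPKM in Stat5a WT and 40.62 to 58.09 RPKM in Stat5b WT libraries at 0 hr, above all their values at 48 hr. It summed to 20.93 to 32.14 RPKM in WT and 42.37 to 46.58 RPKM in KI libraries of the Stat5a line at 48 hr, and to 18.63 to 21.77 and 45.57 to 57.86 RPKM in the Stat5b line, without overlap in either. At 0 hr the NK list summed to 68.82 to 82.42 RPKM in Stat5a KI libraries, which overlapped WT. In Stat5b KI libraries it summed to 76.92 to 118.4 RPKM, above WT. Its part in the results was not tested. The genes of dividing cells (Mki67, Top2a, Ccna2, Ccnb1 and Cdk1) rose in 5 of 5 cases by 48 hr in WT and KI cells of both lines (10.1% and 6.23% of all genes rose in Stat5a and Stat5b KI cells), with a median of 4.76 in Stat5b WT cells and 1.48 in Stat5b KI cells. They summed to 445.7, 451.5 and 488.5 RPKM in WT and 150.7, 196.3 and 126.2 RPKM in KI libraries of the Stat5b line at 48 hr, where 5 of 5 were lower in KI cells, and 1 of 5 was lower in the Stat5a line. The Stat5a line sums at 48 hr were 382.1 to 435.5 RPKM in WT and 236.7 to 282.9 RPKM in KI libraries, without overlap. Earlier the order in the Stat5b line was the other way without overlap, with 19.81 to 24 RPKM in WT and 50.36 to 60.58 RPKM in KI libraries at 0 hr and 20.92 to 24.87 and 55.09 to 72.47 RPKM at 4 hr.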

How the data were processed

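Of 48 RNA-seq libraries in 16 groups, 47 were used, because replicate 3 of Stat5a KI at 4 hr holds far fewer reads. The authors aligned single-end reads of 50 bases with TopHat to build GRCm38 (mm10) (the submitters' processing notes name TopHat2 2.0.11, Bowtie2 2.2.6, SAMtools 0.1.8, bedtools 2.25.0 and edgeR) and kept uniquely mapped reads. For each of 31682 RefSeq transcripts of 23992 symbols they deposited a raw count without normalization, and an RPKM made by the authors from the counts, the transcript length and the mapped reads. The counting program and the use of strand are not given in the sources used here, and isoforms that share an exon each receive its reads, so that counts were taken from the longest transcript and not summed. Floors of 3 reads allow for counting error alone, because PCR copies of a molecule cannot be recognised. The ChIP-seq sample was not analysed here.

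Counts were fitted in R 4.3.3 with edgeR 4.0.16 (TMM, filterByExpr with a minimum count of 10, glmQLFit and glmQLFTest) over all 47 libraries with 1 mean per group and no other covariate, and p-values were adjusted by Benjamini-Hochberg over the 15562 genes tested. A call needed a fold change of at least 2 together with an adjusted p of 0.05 or less, the thresholds of the study's methods. The 24 comparisons were IL-2 against 0 hr, KI against WT, their interaction at 48 hr in each line and the difference between the lines at 0 and 48 hr. The steps were tested on simulated data for KI against WT at 48 hr in the Stat5b line (14564 genes). They recovered 100% of genes changed 3-fold and 100% of those changed 4-fold, with 3 false calls among 14364 unchanged genes. This recovery holds for the spread that was simulated, and recovery was not measured for the genes described here. Their standard errors in that comparison reached 0.482 on the log2 scale, for Pax5.

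The text names all 9 genes in every comparison, Stat5a and Stat5b, the most abundant and the extreme genes of each of 12 marker lists (86 genes, 77 of them outside the 9, with Igj and Emr1 found under older symbols), and the 10 genes most alike to each set. A few other list members are named beside them as background. Some genes that this rule names are not reported here. The members and the lists were chosen with earlier results of these data known. All pairs of libraries within a group differed by more than sampling noise (chi-square of 4.83 to 221 per gene among the 47 libraries used). The pairs with replicate 2 of Stat5a WT cells at 4 hr stood at 217 and 221, and every other pair used was at most 53.3. Replicate numbers are shared by the groups, and the labels do not say what they mark. Deviations from the group means correlated over 0.1 for every one of 3 numbers in 2 comparisons of 2 groups, Stat5a WT cells at 24 hr (0.207, 0.276 and 0.42) and at 48 hr (0.169, 0.116 and 0.193) against 0 hr. Stat5a KI at 4 hr against 0 hr, with 2 numbers, had 0.163 and 0.182.

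The alternatives were all 48 libraries, edgeR with the size factors of DESeq2, DESeq2 1.42.0 itself, no filter on low counts, limma 3.58.1 on log2(RPKM + 1) and on log2(RPKM + 0.1) of the deposited RPKM (genes reaching an RPKM of 1 in 3 or more libraries), separate fits of the groups compared, a block for the replicate number, the transcript with the most reads, each library left out in turn and, added after the data were seen, replicate 3 of Stat5a WT cells left out at all 4 times. Promoter sequences came from RefSeq. Tables and figures were made with Python 3.11.15, pandas 2.3.3, numpy 2.4.6 and matplotlib 3.10.9.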

Additional observations from a re-analysis of the deposited data

Results flagged for a closer look

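The values below are differences between effects, each at least 2-fold with an edgeR adjusted p of 0.05 or less. The IL-2 response at 48 hr was higher in KI than in WT cells of the Stat5b line, on the log2 scale, by 1.91 for Cd79a, 1.51 for Ms4a1, 1.65 for Blnk, 1.77 for Pax5, 1.57 for Cd74, 1.93 for H2-Aa, 2.04 for H2-Ab1 and 2.05 for H2-Eb1. In these genes the RNA, as a share of the library, fell less from 0 to 48 hr in KI cells than in WT cells. The part of the other cell types whose markers moved alongside was not tested.

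The difference between KI and WT cells at 48 hr was larger in the Stat5b line than in the Stat5a line by 1.70 for Cd79a, 1.75 for Ms4a1, 1.57 for Blnk, 1.20 for Cd74, 1.47 for H2-Aa, 1.51 for H2-Ab1 and 1.47 for H2-Eb1. The lines were compared across separate sets of WT and KI libraries, and line and any difference in handling between the sets cannot be told apart.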

How the results depend on the processing

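Over 57 alternative settings, 47 of which leave out 1 library, 3654 log2 differences of the 9 genes were compared with those reported. Of these 3433 kept their direction and their side of the threshold, 162 were no longer past it, 59 came to be past it and 0 called values changed sign, while 4 values not called either way did. Of 406 counts of genes called, 368 stayed within 1.5 times the reported count. With limma on log2(RPKM + 1) the count at 4 hr was 2 in Stat5a KI cells, 3 in Stat5b WT cells and 1 in Stat5b KI cells, that of KI against WT at 0 hr in the Stat5a line was 5, that of the Stat5b line interaction 5 and that of the line difference at 48 hr 4. With log2(RPKM + 0.1) the counts were 2 in Stat5a KI cells, and 1 in KI cells of the Stat5b line at 4 hr and 4 for the line difference at 48 hr. For KI against WT in the Stat5a line at 0 hr the count was 0 with all 48 libraries, 0 in a fit of only the groups compared, 4 by DESeq2 and 0 without replicate 3 of the WT cells, and at 4 hr it was 2 with all 48 libraries, 0 in a fit of only the groups compared and 4 without that replicate. The line difference at 48 hr was called for 1 gene with all 48 libraries, and that at 0 hr for 4 genes without that replicate. The cause of these shifts was not tested, apart from the smaller number of libraries in some of the fits.

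With the replicate number as a block, which pairs libraries across groups, the count of KI against WT in the Stat5a line was 5 at 0 hr and 5 at 4 hr, and that of the Stat5a line interaction was 1. Every other count with the block stayed within 1.5 times, including 8 and 9 genes in Stat5a WT cells at 24 and 48 hr, where the numbers pair. Leaving out each library in turn, the counts ranged from 1 to 6 for Stat5a KI cells at 4 hr, from 2 to 5 for Stat5b KI cells at 4 hr, from 0 to 8 for KI against WT at 0 hr and from 0 to 9 at 4 hr in the Stat5a line, from 0 to 4 for the Stat5a line interaction and from 4 to 8 for the line difference at 48 hr. Without either KI library of the Stat5a line at 4 hr, the 1 left is assumed to vary like the other groups. With DESeq2's size factors the median of all genes moved by -0.105 to 0.038. With limma on log2(RPKM + 1) it moved by -0.124 to 0.296, where the scaling, the model and the genes kept all changed together. Depth limits the lowest values most, such as Pax5 in Stat5b WT cells at 48 hr with 15 to 36 reads.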

Other observations

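The library left out of the fits, replicate 3 of Stat5a KI at 4 hr, held the 9 genes at low levels. It had 13 reads of Cd79a, 44 of Cd79b, 2 of Ms4a1 (at or under the floor of 3 reads) and 160 of Cd74. In CPM this was 12.64 for Cd79a, beside at least 134.8 in replicates 1 and 2, and 155.6 for Cd74, beside at least 1060. Its Cd8a level was 1.534 RPKM, beside 175.5 and 162.7 RPKM in replicates 1 and 2. RPKM is scaled to mapped reads, which lowers the RPKM of this library. Only 5.675% of its mapped reads were counted on the longest transcripts, against 74.8% and 73.72% in replicates 1 and 2.

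The H2-Ab1 to H2-Aa ratio, 2 chains of the same I-A molecule, was 0.908 to 0.970 in the 12 libraries at 0 hr and 0.634 to 0.764 in the 35 libraries at 4, 24 and 48 hr, without overlap, in WT and KI cells of both lines. The ratio was not tested.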
